A study of Danio rerio with 3 samples.

Results

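The comparison described here is that of cortisol-treated with vehicle-treated zebrafish embryos at 24 hours post fertilisation (hpf), which rests on 1 of the 3 arrays of the series. Described are the genes whose probes passed the negative controls in both channels of that array, 12319 of 27216 gene names, from 18831 of 43603 gene probes. The other arrays hold the same comparison at 5 and 12 hpf. The series asked which transcripts differ in embryos after an early excess of the steroid cortisol.

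Per the labels, ovulated oocytes of wild type Danio rerio were kept from 0 to 2 hpf in fish water with cortisol at 5 mg/L (13.8 µM). Control embryos spent the same 2 hours in fish water with the vehicle, 2 ml of absolute ethanol in 1 L. Both groups were raised at 28.5 °C and fixed at 24 hpf, so the array was read long after the end of the bath. The fish came from a local pet shop, and at 24 hpf a single experiment was done. How many embryos and clutches gave the RNA is not stated in the labels. RNA of cortisol-treated embryos was labelled with Cy5 (red) and RNA of vehicle-treated embryos with Cy3 (green). No array had the dyes exchanged, so a dye preference of a probe and an effect of cortisol cannot be told apart. With 1 array there is no spread between embryos and no test, and genes are counted by the size of their ratio.

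Cortisol is the main glucocorticoid of fish and acts chiefly through the glucocorticoid receptor, a hormone-activated transcription factor present in the egg as maternal transcript and protein. At 24 hpf the trunk has its somites, the blocks of mesoderm that form muscle. The tailbud at the posterior end still holds mesodermal progenitors, kept by Wnt, Fgf and T-box factors, and progenitors that leave it pass through the presomitic mesoderm. In whole embryos, fewer cells of a type and less RNA per cell cannot be told apart.

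Most genes of a set of tissue markers and maternal oocyte transcripts passed the negative controls. Of 47 marker genes of muscle, blood, lens, neurons, pigment, hatching gland, notochord, heart, epidermis, tailbud and oocytes on the array, 42 passed the negative controls in cortisol-treated embryos and 46 in vehicle-treated embryos. The collagen gene col9a1a was below them in both, and cryaa, mitfa, btg4 and bmp15 were below them in cortisol-treated embryos alone. The red channel was dim. A probe counted as measured above 136.9 units in red, against a median local background of 130.0, and above 55.7 units in green, against 48.5. Each limit lies 2 SD over the mean of the 153 negative control spots in that channel. The 5 oocyte genes are maternal transcripts rather than tissue markers, and all passed in vehicle. Among them the brightest probes of btg4 and bmp15 read 61.0 and 60.0 units in green, so a pass can rest on a signal near the limit. Just inside the red limit lay 1 probe each of arf2b and etnk1 at 137.0 units, and just outside it plvapb and vcpkmt at 136.5 units each. A further 12817 probes passed in vehicle alone and 445 in cortisol alone.

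Each gene was given as a pair of log2 ratios of cortisol over vehicle, so that 1 means 2-fold higher and -1 means 2-fold lower in cortisol-treated embryos. The scanner ratio was computed here from the scanner signals, and the deposited ratio is the authors' own, from the same spots, so the pair shares its RNA and its array. The scanner signals showed a drift along the array. Among bright gene spots the median log2 ratio was -0.69 in the first of 20 equal parts of the spot order and 0.21 in the last. The spike-in controls, foreign RNAs added to both samples, showed the same drift, at -0.91 and 0.20 relative to their own medians. The deposited ratio of bright gene spots lay at -0.04 and 0.09 in those parts. The scanner ratio was therefore corrected for spot order by a curve fitted to bright gene spots, without the spike-ins. After it the spike-ins lay at 0.00 and -0.11 in those parts. The median SD between 32 spots of a spike-in was then 0.16, against 0.33 before it and 0.17 in the deposited ratio. In 4368 genes with several probes, the pooled SD among them was 0.23 for the scanner ratio and 0.44 for the deposited ratio.

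**Figure D1:**
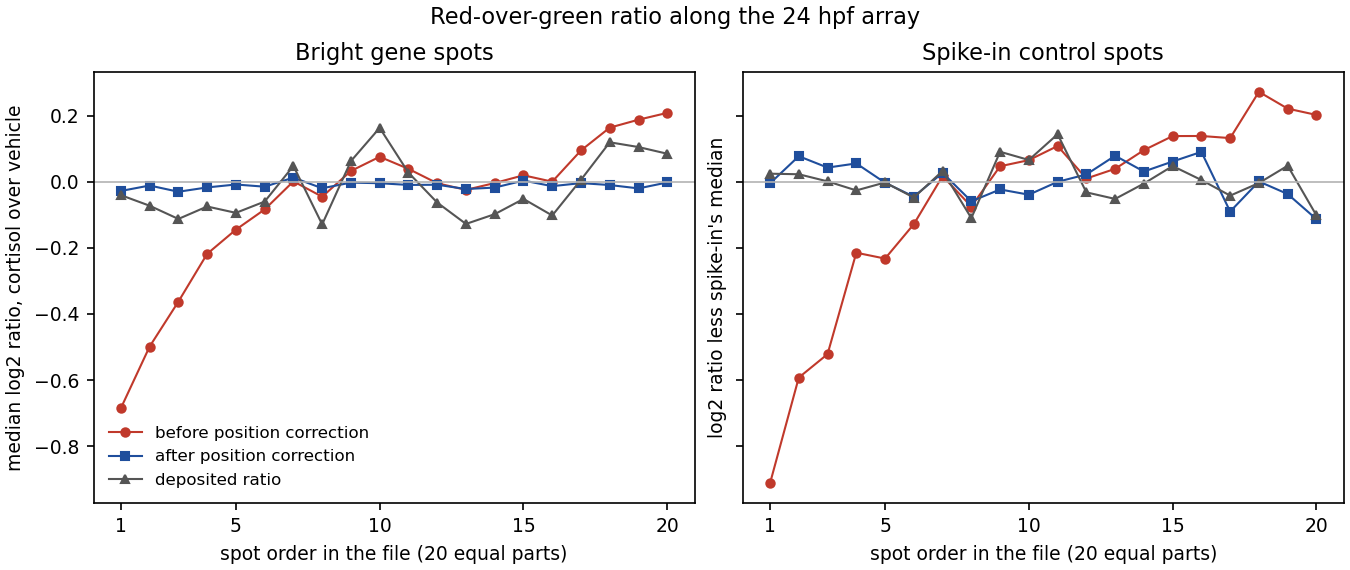
Median log2 ratio of cortisol over vehicle in 20 equal parts of the spot order of the 24 hpf array, for bright gene spots (left) and for spike-in controls less each spike-in's own median (right). Circles are the scanner ratio before the correction for spot order, squares the ratio after it and triangles the deposited ratio; circles start at -0.69 and end at 0.21 for gene spots, and squares stay near 0.

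Cortisol-treated embryos had 120 genes past 1.5-fold higher in both ratios, or 0.974% of the genes measured, and 119 past 1.5-fold lower, or 0.966%. In the scanner ratio alone 1.12% were past 1.5-fold in each direction. Past 2-fold in that ratio were 42 higher genes (0.341%) and 19 lower genes (0.154%). Without the correction for spot order these counts were 40 and 97. Of those 97 genes, 73 lay in the first 10% of the spots, which hold 5.26% of all genes measured, and 14 were still 2-fold lower after the correction. The genes past 1.5-fold in both ratios, which use the corrected scanner ratio, were still over-represented there, with 20 of the 120 higher genes (16.7%) and 21 of the 119 lower genes (17.6%). A gene's place here is the mean over its measured probes, which puts genes with several probes less often at an end. Several probes were measured for 4368 of all 12319 genes, and most called genes had 1. How much of the excess goes with probe number was not tested. In the deposited ratio 448 genes were 2-fold higher and 320 lower. Across genes the 2 ratios correlated at 0.63, and genes are not independent replicates.

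On the cortisol side the lower genes were dimmer than the higher ones, but not dimmer than the typical measured gene. Red signals of the 119 lower genes had a median of 187.0 units, from 137.0 to 1172, and those of the 120 higher genes a median of 587.0, from 138.0 to 5731 units. Over all genes measured the red median was 164.0 units. Of the higher genes 85.0% rest on 1 probe, and of the lower genes 73.1%. Among genes with several measured probes, all 32 lower genes and 17 of 18 higher genes had the same sign in every probe. The calls rest on the mean of those same probes, which favours 1 sign, so this is no separate evidence.

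**Figure D2:**
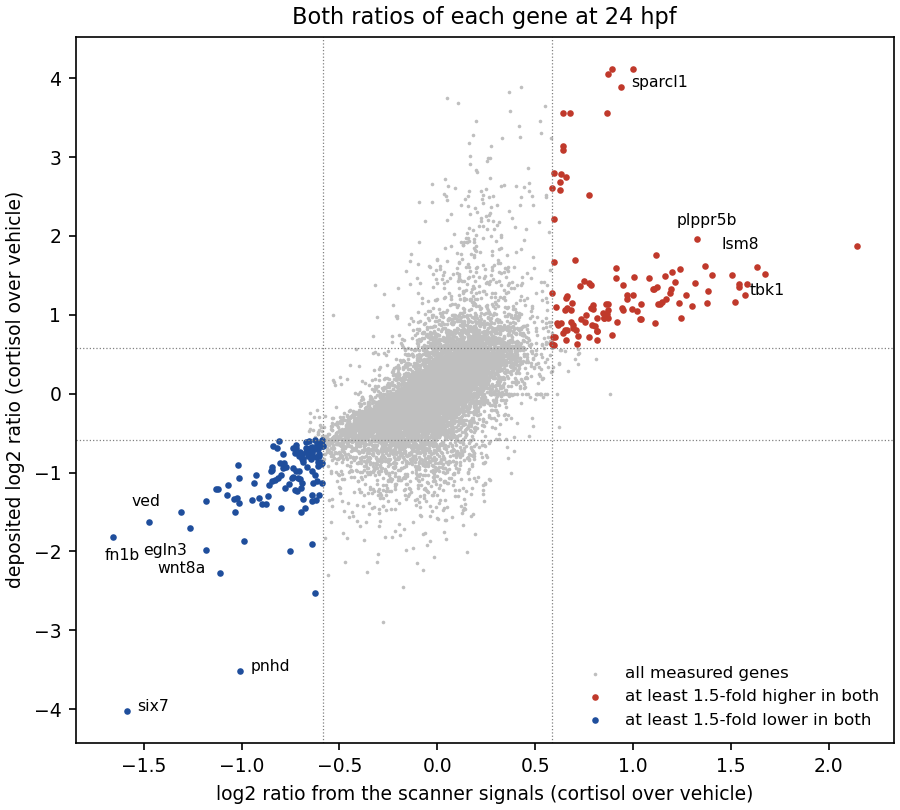
Scanner log2 ratio (horizontal) and deposited log2 ratio (vertical) of cortisol over vehicle for the 12319 genes measured at 24 hpf; dotted lines mark 1.5-fold. The 120 genes past 1.5-fold higher in both are red and the 119 past 1.5-fold lower are blue, with six7 and pnhd far lower in the deposited ratio than in the scanner ratio and sparcl1 far higher, at 3.89 and 0.94.

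Genes of the tailbud and the presomitic mesoderm were prominent among the lower ones. Of 42 genes of this list on the array, 33 were measured in both channels. At least 1.5-fold lower in both ratios were 8 of the 33 (24.2%), against 0.966% of all genes, and 0 were higher. The list was chosen with earlier results of these data known, so its direction is not independent evidence. Its median was -0.19 in the scanner ratio and -0.37 in the deposited one, against -0.02 and 0.00 for all genes. The list was split, with 19 of the 33 below 0 in both ratios, against 40% of all genes. Above 0 in both were 11 of the 33, against 36.1% of all genes. A further 8 of the 42 passed the negative controls in vehicle alone and 0 in cortisol alone. Over the array 7247 of 27216 gene names passed in vehicle alone and 318 in cortisol alone. The median thus covers only members measured in both channels.

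The gene msgn1 encodes a basic helix-loop-helix factor that moves progenitors into the presomitic mesoderm, and its 5 probes had a mean processed signal of 1208 units in cortisol-treated embryos and 3122 in vehicle-treated embryos. Its log2 ratio was -1.01 in the scanner signals, with single probes from -1.24 to -0.61, and -1.39 in the deposited ratio. All 5 probes were lower.

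The T-box genes of the same territory differed among themselves. For tbx16l the mean processed signal of 2 probes was 519 units in cortisol-treated embryos and 1458 in vehicle-treated embryos, with log2 ratios of -1.18 and, deposited, -1.37. For tbx6 it was 400 units in cortisol-treated embryos and 1074 in vehicle-treated embryos, with -0.80 and -1.44. The related tbx16, which lets mesodermal cells leave the tailbud, was at -0.19 and -0.37, within the 1.5-fold range. Its measured probes had opposite signs, at 0.08 and -0.46 in the scanner ratio and 0.12 and -0.86 in the deposited one. The gene tbxta, whose loss gives the no tail mutant, was not lower at all, at 1330 units in cortisol-treated embryos and 1140 in vehicle-treated embryos, a log2 ratio of 0.09 and 0.23. Thus 2 of these 4 T-box genes were past 1.5-fold in both ratios.

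Further lower members of the list were a Wnt ligand gene, a Wnt target gene and a caudal gene. The ligand gene wnt8a had a processed signal of 120 units in cortisol-treated embryos and 582 in vehicle-treated embryos, with a scanner ratio of -1.11 and a deposited ratio of -2.28. Its raw red signal, 137.5 units, lay just over the limit, so the size of this ratio rests on a spot near background. The caudal homeobox gene cdx4, which patterns the posterior body, had 398 units in cortisol-treated embryos and 1186 in vehicle-treated embryos, with -1.04 and -1.50 over 2 probes. The Wnt target gene sp5l had 501 units in cortisol-treated embryos and 1040 in vehicle-treated embryos, with -0.59 and -1.13. Both measured probes of cdx4 and of sp5l were lower, and wnt8a had 1 measured probe. Genes among the 20 lowest, such as msgn1 and cdx4, were named only if all their probes had 1 sign. The related caudal gene cdx1a lay the other way, at 0.16 and 0.28. In the Wnt list, which shares wnt8a with the tailbud list, 2 of 24 measured genes were lower and 0 higher. The lower ones are 8.33%, against 0.966% of all genes, and the list medians were -0.07 and 0.00.

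The retinoic acid degrading enzyme gene cyp26a1, active in the tailbud, and the fibronectin gene fn1b, whose product lines the somites, completed the 8. Processed signals of cyp26a1 were 1191 units in cortisol-treated embryos and 2825 in vehicle-treated embryos, with log2 ratios of -1.07 and -1.28. Those of fn1b were 1120 units in cortisol-treated embryos and 3940 in vehicle-treated embryos, with -1.66 and -1.82 from 1 probe. The scanner ratio of fn1b was the lowest of all 12319 genes. In the retinoic acid list cyp26a1 was the only one of 13 measured members past 1.5-fold in both ratios (7.69%, against 0.966% of all genes lower), and the related hindbrain gene cyp26c1 lay the other way at 0.54 and 0.70.

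Other members of the list differed less in the scanner ratio. The Delta ligand genes dlc and dld were at scanner ratios of -0.02 and 0.16 and deposited ratios of 0.10 and 0.27. The clock gene her1 was at -0.25 and -1.03 with a red signal of 141.0 units, and ripply1, which marks forming somite borders, was at -0.52 and -0.99 with the same red signal. The related gene her12 lay the other way at 0.40 and 0.20, the highest scanner ratio of the list. Without the correction for spot order her12 was at -0.01. The ligand gene fgf8a was at -0.37 and -1.14. For her1, ripply1 and fgf8a the deposited ratio was thus past 1.5-fold and the scanner ratio was not. Of the tail Hox genes, hoxc13a and hoxb13a had scanner ratios of 0.07 and 0.33, with deposited ratios of 0.57 and 0.68. Single probes of hoxc13a read -0.03 and 0.18 in the scanner ratio. Those of hoxd13a read 0.18 and -0.28, with deposited ratios of -0.03 and -0.40.

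**Figure D3:**
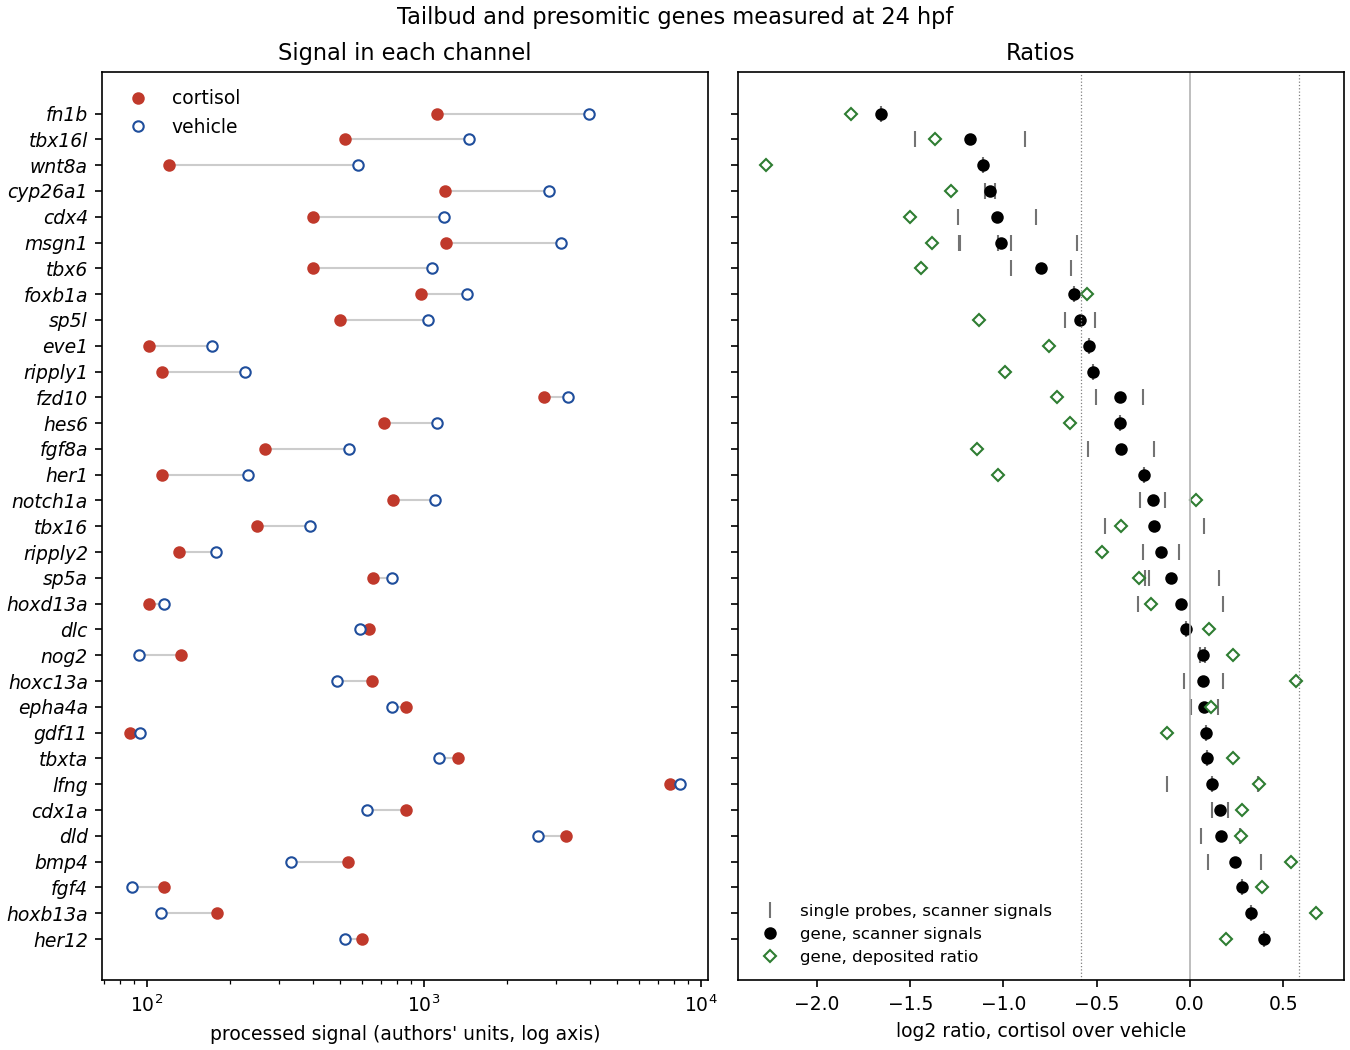
The 33 tailbud and presomitic genes measured at 24 hpf, ordered by scanner ratio. Left, mean processed signal in cortisol-treated (filled) and vehicle-treated (open) embryos on a log axis; right, log2 ratio of cortisol over vehicle of each gene in the scanner signals (circles), of its single probes (bars) and in the deposited ratio (diamonds), with dotted lines at 1.5-fold. From fn1b at -1.66 to tbx6 at -0.80 the filled points lie well left of the open ones, whereas dlc and tbxta show nearly equal signals.

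In vehicle-treated embryos the same 8 genes already stood lower on the array at 24 hpf than at 12 hpf. The median percentile of their green signal among all gene probes was 87.0 at 24 hpf and 94.5 at 12 hpf, and it was lower at 24 hpf for 8 of 8. This was not particular to them, since it held for 25 of the 33 measured list members. For cyp26a1 the fall was slight, from 93.1 to 92.9. Their cortisol-over-vehicle ratios at 12 hpf ran from -0.23 to 0.14 with a median of -0.18. Hence 8 of 8 were within 1.5-fold of vehicle at 12 hpf in the scanner ratio. Most lower genes shared this, as of all 119 only 2 were lower in both ratios at 12 hpf and 4 higher. At 5 hpf cdx4 and sp5l were past 1.5-fold lower in both ratios, cdx4 at -0.60 and -1.23 and sp5l at -0.69 and -1.23. At that stage msgn1 was at -0.56 and -0.96, whereas wnt8a lay the other way at 0.50 and 0.48.

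Some genes of early ventral patterning were also lower. Of 28 measured genes of the ventral and Bmp list 4 were lower in both ratios (14.3%, against 0.966% of all genes) and 0 higher, and the list median was -0.09 and, deposited, -0.21. Its members ved and vox encode homeobox repressors that act on the ventral side of the gastrula. The signal of ved was 1185 units in cortisol-treated embryos and 4140 in vehicle-treated embryos, with log2 ratios of -1.48 and -1.63. The signal of vox was 416 units in cortisol-treated embryos and 1144 in vehicle-treated embryos, with -0.68 and -1.44. The 2 probes of each gene had scanner ratios of -1.76 and -1.19 for ved and of -0.98 and -0.37 for vox. The list's other called members were cdx4 and the blood and ectoderm factor gene gata2a, at 904 units in cortisol-treated embryos and 1890 in vehicle-treated embryos, a ratio of -0.81 and -1.06.

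The POU factor gene pou5f3, which helps activate the zygotic genome and later marks the tailbud and hindbrain, had a signal of 216 units in cortisol-treated embryos and 792 in vehicle-treated embryos. Its log2 ratio was -0.99 in the scanner signals and -1.87 deposited. The other pluripotency genes were within 1.5-fold in at least 1 ratio, among them sox19b at -0.16 and -0.58 and klf2a at -0.38 and -0.58. Thus 1 of 15 measured members of that list was lower in both ratios (6.67%, against 0.966% of all genes) and 0 higher.

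Among genes of Fgf signalling, the phosphatase gene dusp6, induced by Fgf and limiting its signal, had 3350 units in cortisol-treated embryos and 5590 in vehicle-treated embryos, a ratio of -0.70 and -0.74. The ETS factor gene etv4, another Fgf target, had 1710 units in cortisol-treated embryos and 2790 in vehicle-treated embryos, a ratio of -0.65 and -0.71. Both were close to the threshold, and without the correction for spot order dusp6 was at -0.34. Of 16 measured genes of the Fgf list these 2 were lower (12.5%, against 0.966% of all genes) and 0 higher.

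Among somite and early muscle genes a minority was lower. The homeobox gene meox1, needed for the outer layer of the somite, had 1379 units in cortisol-treated embryos and 2527 in vehicle-treated embryos, a ratio of -0.69 and -0.86. The myogenic factor gene myf5, expressed first in presomitic muscle precursors, had 742 units in cortisol-treated embryos and 1780 in vehicle-treated embryos, a ratio of -0.87 and -1.29. The later regulators myod1 and myog had scanner ratios of -0.29 and -0.30 and deposited ratios of -0.10 and -0.33. The value of myog was -1.25 without the correction for spot order. Of 18 measured somite genes 2, meox1 and fn1b, were lower (11.1%, against 0.966% of all genes) and 0 higher. Of 23 myogenic regulators 1 was lower and 1 higher (4.35% each, against 0.966% and 0.974% of all genes).

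A pair of egg envelope genes, which encode zona pellucida proteins, was lower with dim signals. In the maternal and oocyte list, 3 of 23 measured members were lower in both ratios (13.0%, against 0.966% of all genes) and 0 higher, with a median of -0.11 and, deposited, -0.44. The gene zp2.5 had 606 units in cortisol-treated embryos and 1340 in vehicle-treated embryos, a ratio of -0.76 and -1.14. The gene zp2.1 had 257 units in cortisol-treated embryos and 446 in vehicle-treated embryos, a ratio of -0.60 and -0.79. The third member was pou5f3. Near-identical copies of zp2 genes may share probes, so single members of that family are uncertain. Of 41 list members on the array 17 were measured in vehicle alone, against 7247 of all 27216 gene names.

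Other lower genes belong to none of the groups above. The lowest deposited ratio in this set was that of six7, a homeobox gene of the eye and photoreceptors, with 87.5 units in cortisol-treated embryos and 1410 in vehicle-treated embryos, a ratio of -1.58 and -4.02. Its red signal of 139.5 units was near the limit, as was that of pnhd, known in Xenopus as a secreted patterning factor, at 137.5 units with ratios of -1.01 and -3.52. For both genes the scanner and deposited ratios thus had the same sign and differed widely in size. The scanner ratio of pnhd was -1.79 with the offset set to 10 units and -4.08 with plain background subtraction, so its size depends on the offset. The keratin gene krt99 had 2435 units in cortisol-treated embryos and 6880 in vehicle-treated embryos, a ratio of -1.31 and -1.50. Its 2 probes differed with an SD of 0.05, and it was at -1.96 without the correction for spot order. The other 17 keratin genes were not lower in both ratios.

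Metabolic and stress genes made up further members of the 20 lowest. The prolyl hydroxylase gene egln3, which targets hypoxia-inducible factors, had 337 units in cortisol-treated embryos and 1340 in vehicle-treated embryos, a ratio of -1.18 and -1.99. The sestrin gene sesn3, of a family induced by oxidative stress and starvation, was at -1.07 and -1.15. The mitochondrial phosphoenolpyruvate carboxykinase gene pck2 was at -0.83 and -1.10. Each of these was measured by 1 probe. The PI3-kinase inhibitor gene pik3ip1 was at -0.93 and -1.13, the chaperone gene bag6 at -0.84 and -0.93, the kinase anchor gene akap1b at -0.81 and -0.87 and the ciliary transition zone gene tmem67 at -0.80 and -1.03. The regional neural genes irx7, at -0.64 and -0.98, and otx1, at -0.62 and -0.64, were the 2 lower ones of 38 measured in their list (5.26%, against 0.966% of all genes), whose median was -0.02 and, deposited, -0.06. Of 15 measured heart genes gata5, at -0.62 and -1.35, was lower and 1 was higher. Each is 6.67% of that short list, against 0.966% of all genes lower and 0.974% higher.

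Contractile muscle genes lay on the higher side in both ratios, though not when the array was centred on its median in place of the loess fit. Of 76 measured genes of this list 6 were past 1.5-fold higher in both ratios (7.89%), against 0.974% of all genes, and 0 lower. The list median was 0.18 in the scanner ratio and 0.26 in the deposited one, and -0.43 relative to all genes under median centring, where each of the 6 was also below 0. Above 0 in both ratios were 56 of the 76, against 36.1% of all genes, and below 0 in both were 12, against 40%. The list was chosen with earlier results known.

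The 6 genes encode proteins of fast and slow fibres. The fast light chain gene mylpfa had a mean processed signal of 24800 units over 3 probes in cortisol-treated embryos and 16477 in vehicle-treated embryos, a ratio of 0.78 and 0.73, with probes from 0.66 to 0.88. The heavy chain gene myhz1.1 had 18175 units over 6 probes in cortisol-treated embryos and 13054 in vehicle-treated embryos, a ratio of 0.59 and 0.72. The slow heavy chain gene smyhc2 was at 0.69 and 0.83, and the heavy chain gene myhc4 at 0.69 and 0.91, from 1 probe each. All measured probes of mylpfa and myhz1.1 were higher. Heavy chain copies are near-identical and may share probes, so each single gene is uncertain.

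The other 2 rested on less even evidence. The calcium pump gene atp2a1 was at 0.82 and 0.68 from 1 probe in the first 10% of the spots, and at -0.20 without the correction for spot order. The myosin binding protein gene mybpc2b was at 0.71 and 0.81, but its 3 probes read 0.16, 0.32 and 1.64 in the scanner ratio. The muscle factor gene mef2ca, of the regulator list, had 2252 units in cortisol-treated embryos and 1006 in vehicle-treated embryos, a ratio of 0.61 and 0.90, with probes from 0.02 to 1.11. Markers of differentiated muscle that were not called include acta1b at 0.33 and 0.37 and ckma at -0.07 and 0.19.

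Neuron differentiation genes leaned the same way without any member passing the threshold. Of 44 measured members 31 were above 0 in both ratios, against 36.1% of all genes, and 6 below 0 in both, against 40%. The median was 0.11 and, deposited, 0.28. The synaptic gene snap25a had 1394 units in cortisol-treated embryos and 819 in vehicle-treated embryos, a ratio of 0.56 and 0.96. The tubulin gene tuba1c had 7340 units in cortisol-treated embryos and 4620 in vehicle-treated embryos, a ratio of 0.58 and 0.67. Both lay just under 1.5-fold in the scanner ratio. Past it in both ratios were 0 members, against 0.974% of all genes higher and 0.966% lower. The list median stayed between 0.03 and 0.29 under the alternatives tried.

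Of 48 measured genes in a list of glucocorticoid receptor targets chosen here, 0 were past 1.5-fold higher in both ratios, against 0.974% of all genes. In a list of this size 0 is close to that share. Past 1.5-fold lower in both ratios were 4, or 8.33%, against 0.966% of all genes. The list median was -0.08 and, deposited, -0.13. The 4 were the mitochondrial enzyme gene pck2, the glycolysis regulator gene pfkfb3 at -0.70 and -1.20, the repressor gene bcl6aa at -0.65 and -0.75 and the metallothionein gene mt2 at -0.60 and -0.77. Of these mt2 had 3 probes, with 1738 units in cortisol-treated embryos and 2736 in vehicle-treated embryos. The red signal of bcl6aa, 137.0 units, was at the limit and equal to its local background, so plain background subtraction gave it no ratio. The other measured targets were within 1.5-fold in at least 1 ratio, such as the kinase gene sgk1 at -0.50 and -0.46 and the leucine zipper gene tsc22d3 at -0.17 and -0.30.

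For the receptor and its partners the gene means stayed within 1.5-fold in at least 1 ratio, while single probes varied. The glucocorticoid receptor gene nr3c1 had 433 units over 4 probes in cortisol-treated embryos and 490 in vehicle-treated embryos, a ratio of -0.09 and -0.36. Its probes ran from -0.33 to 0.07 in the scanner ratio and from -0.57 to 0.24 in the deposited one. The cortisol inactivating enzyme gene hsd11b2 was at -0.04 and 0.06 with dim signals, and the circadian genes per1a and per1b at scanner ratios of -0.08 and -0.16, deposited -0.18 and -0.06. The value of per1b was -0.84 without the correction for spot order. Of 23 measured receptor and chaperone genes 0 were past 1.5-fold in both ratios, against 0.974% of all genes higher and 0.966% lower. In a list of this size 0 is close to those shares. The chaperone gene hsp90ab1 was at 0.42 and 0.30, with probes from 0.09 to 0.94 and, deposited, from -0.26 to 1.12. The chosen genes fkbp5, klf9, pck1, pomca, nr3c2 and mmp13a were not measured in both channels. Chosen matrix proteinase genes lay within 1.5-fold in both ratios, with mmp2 at -0.19 and -0.01, mmp9 at -0.16 and 0.01 and mmp14a at -0.21 and -0.25. Without the correction for spot order mmp2 was at -1.02.

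Of the 44 lists described, 20 held a gene lower in both ratios, 10 held one higher and 19 held neither. Lists share members, among them fn1b, cdx4, cyp26a1, wnt8a and pou5f3, so their counts are not independent. List medians ran from -0.19 for the tailbud genes to 0.22 for ribosomal proteins in the scanner ratio. The median of the 79 ribosomal protein genes was -0.03 in the deposited ratio, -0.09 with plain background subtraction and -1.23 relative to all genes with median centring, so its sign depends on the scaling. Lists close to the median of all genes included the Hox clusters, at 0.00 and 0.00 over 44 genes, the cell cycle genes, at 0.00 and 0.09 over 78, and the respiratory chain, at 0.04 and 0.07 over 89. With median centring these lists were at 0.31, -0.64 and -0.77 relative to all genes, so their place also depends on the scaling. None of their genes was past 1.5-fold in both ratios, against 0.974% of all genes higher and 0.966% lower.

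**Figure D4:**
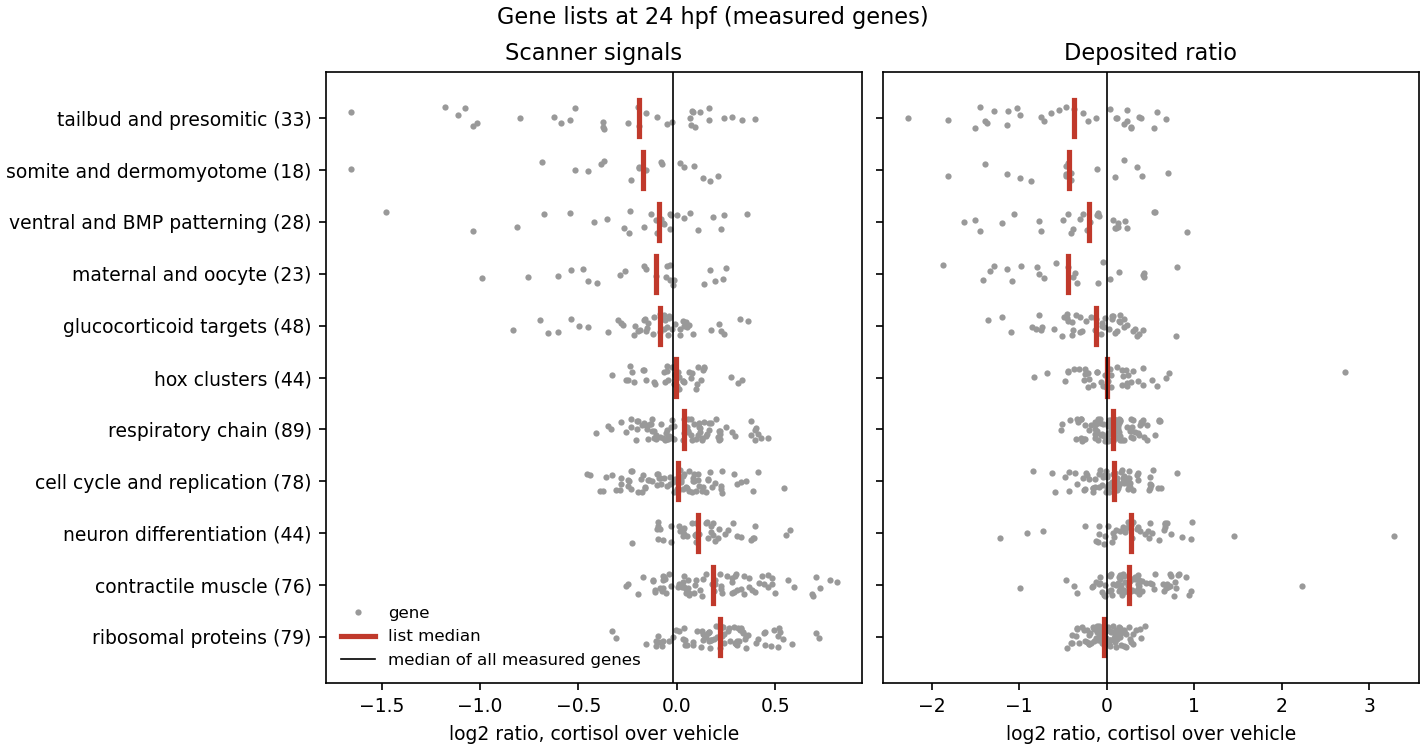
Log2 ratio of cortisol over vehicle of each measured gene (grey) in 11 lists at 24 hpf, in the scanner signals (left) and in the deposited ratio (right), with the number of genes in brackets; the red bar is the list median and the black line the median of all measured genes. The tailbud bar lies at -0.19 and -0.37 and the contractile muscle bar at 0.18 and 0.26, with the muscle list at -0.43 relative to all genes under median centring; the ribosomal protein bar is at 0.22 on the left and -0.03 on the right, and that list was at -1.23 under median centring.

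The 20 highest genes had mostly bright spots. Their red signals ran from 320.5 to 5731 units with a median of 856, against 189.1 units for the 20 lowest, and 18 of the 20 had 1 measured probe. The gene wbp2nl, whose mammalian relative is a sperm protein of egg activation, had 48400 units in cortisol-treated embryos and 18500 in vehicle-treated embryos, a ratio of 1.58 and 1.39. The kinase gene tbk1 of innate antiviral signalling had 40000 units in cortisol-treated embryos and 15300 in vehicle-treated embryos, a ratio of 1.54 and 1.39. Both were more than 2-fold higher in either ratio.

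Further genes of high ratio had diverse roles. The acyl-CoA thioesterase gene acot9.2 was at 1.57 and 1.25, the dynein assembly gene spag1b at 1.54 and 1.36, and the mitochondrial ribosome gene mrpl20 at 1.52 and 1.16. The value of spag1b was 0.64 without the correction for spot order. The chromatin remodelling gene ino80db was at 1.38 and 1.15, the lipid phosphatase relative plppr5b at 1.33 and 1.96 and bmerb1 at 1.32 and 1.41. The G protein regulator gene rgs5b was at 1.24 and 1.58, the zinc finger gene znf367 at 1.19 and 1.27 and the pro-apoptotic gene pawr at 1.17 and 1.21. The fucosyltransferase gene fut9b.5 had 5150 units in cortisol-treated embryos and 1770 in vehicle-treated embryos. The remaining ones, from 0.97 to 1.15 in the scanner ratio, were cbfa2t2, ets2, il20ra, pycr1b, h3c13a, lgalsla and sepsecs.

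The splicing gene lsm8 shows how a mean can rest on 1 probe. Its 2 probes had signals of 5850 and 2780 units in cortisol-treated embryos and 668 and 2590 in vehicle-treated embryos. Their scanner ratios were 2.73 and 0.01 and their deposited ratios 3.13 and 0.11, which gave the gene 1.37 and 1.62. The gene thus has no settled value. In the apoptosis list apaf1, at 0.73 and 0.95, had probes at 0.14 and 1.33.

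The higher and the lower genes differed in what the other arrays showed for them. Of the 120 higher genes 104 were measured at 12 hpf, and 61 of these (58.7%) were past 1.5-fold higher in both ratios there too, against 1.09% of all genes at 12 hpf. The 61 are 43.9% of the 139 genes called higher at 12 hpf. At 5 hpf 29 of 117 were higher (24.8%), against 2.62% of all genes, and 26 genes were higher at 5, 12 and 24 hpf. These 26 genes thus read high on separate arrays of embryos of different age. Genes were matched by name, and the probes measured could differ between arrays. Each array had cortisol in red, so a dye preference and an effect of cortisol cannot be told apart.

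Of the 119 lower genes all 119 were measured at 12 hpf, and 2 (1.68%) were lower there, against 0.282% of all genes, while 4 were higher. At 5 hpf 5 of 118 were lower (4.24%), against 0.906%. The median scanner ratio at 12 hpf was 0.72 for the higher and -0.07 for the lower genes of 24 hpf. Among the 20 lowest genes 0 were past 1.5-fold lower in the scanner ratio at 12 hpf and 2 at 5 hpf. Whether the difference in recurrence is larger than the spread between embryos was not tested, since each stage is 1 set of values.

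**Figure D5:**
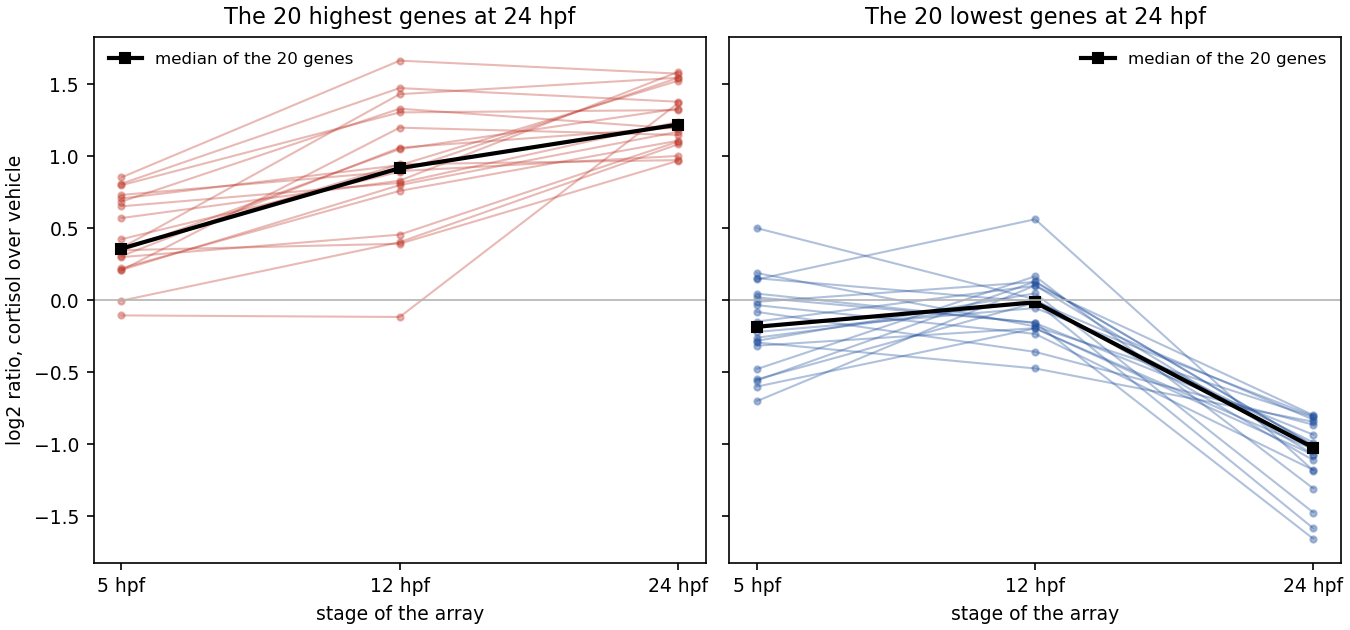
Scanner log2 ratio of cortisol over vehicle at 5, 12 and 24 hpf for the 20 highest (left) and the 20 lowest (right) genes of 24 hpf, 1 line per gene, with the median of the 20 in black. Medians of the highest genes were 0.36 at 5 hpf and 0.92 at 12 hpf, whereas those of the lowest were -0.18 and -0.01 at these stages.

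Of 103 higher genes measured at both earlier stages, 28 were not past 1.5-fold higher in either ratio at 5 or 12 hpf. In the heavy chain gene smyhc2 the ratio at 12 hpf was -0.32, and in the tubulin gene tubb2b, which encodes a neuronal tubulin and was chosen after its values were seen, it was -0.50, and 0.66 at 24 hpf. The translation elongation gene eef2b, chosen in the same way, had 46907 units over 7 probes in cortisol-treated embryos and 28384 in vehicle-treated embryos. Its ratio at 24 hpf was 0.72 and 0.73, and at 5 and 12 hpf it was -0.24 in the scanner ratio.

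Genes were also grouped by how their signal changed in vehicle-treated embryos between 5 and 12 hpf, which uses no channel of the 24 hpf array. Of 550 genes past 4-fold lower in vehicle at 12 than at 5 hpf, 24 were higher in both ratios at 24 hpf, or 4.36%, against 0.974% of all genes, and 2 were lower. Of 1198 genes at least 4-fold higher at 12 hpf, 31 were lower in both ratios, or 2.59%, against 0.966%, and 6 were higher. The medians of all classes lay between -0.05 and -0.01, so the classes differ at their edges and not in their centre. Across 12131 genes the correlation of this earlier change with the 24 hpf ratio was -0.08, a description over genes that share the arrays.

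Genes seen in 1 channel alone have bounds only. Names measured in vehicle alone numbered 7247, and in cortisol alone 318. Each bound sets the bright channel against the lowest normalized signal among probes that passed in the other channel, or against the dim probe itself if that is higher. Among 8447 vehicle-alone probes of genes with no probe in both channels, 43 had a bound past 1.5-fold. The largest was that of the organizer homeobox gene gsc, chosen after its value was seen, at least 1.84-fold lower with cortisol. Among 377 such cortisol-alone probes 17 had a bound past 1.5-fold. These bounds are open to dye bias.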

How the data were processed

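RNA of cortisol-treated (red) and vehicle-treated (green) embryos was compared on 1 Agilent array per stage. The deposited scanner files give each spot's median signal intensity and its local background, made with Agilent Feature Extraction per the submitters' processing notes. The authors also deposited a log10 ratio of red over green, normalized per the file headers and rescaled here to log2, and a processed signal intensity per channel; the sources do not say how its background and dyes were treated.

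Background was corrected with limma's normexp (offset 50; limma 3.58.1, R 4.3.3), and ratios were normalized by loess within each array, control spots at weight 0. Beforehand red signals were divided by a loess curve (span 0.1) over spot order, fitted to 18024 bright gene spots at 24 hpf. This step departs from the planned processing and was added after the drift was seen; values without it are given. Values were averaged over the spots of each probe and then over a gene's measured probes. Probes were named through RefSeq (assembly GRCz12tu, names only): 25258 by accession, 2766 by symbol, 1682 by synonym, and 13897 kept the file's name. No sequence of the probes was used.

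The members and lists were chosen with earlier results of these data known. Named are the 20 highest and 20 lowest genes with a symbol and 1 sign in every probe and in both ratios, ranked by the smaller ratio, up to 6 members of each list ranked likewise, and a set of chosen genes. The genes tbx6, tbx16, tbxta, cdx1a, dlc, dld, her1, her12, hoxc13a, hoxd13a, acta1b, ckma and sparcl1 fall outside this rule. They were chosen after their values were seen, as were the genes so described in the text. The normalization was tested on simulated data. Alternatives were offset 10, plain subtraction, the deposited ratio, median centring, bright probes only, no filter and the brightest probe. The number of arrays limits the precision, and no p-value is given.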

Additional observations from a re-analysis of the deposited data

Results flagged for a closer look

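The spike-in controls are outside the comparison of embryos and showed a difference between arrays. In the scanner ratio the median over 10 spike-ins was -0.70 at 24 hpf, against 0.98 at 12 hpf and 0.76 at 5 hpf. Each of the 10 was lower at 24 than at 12 hpf, by a median of -1.45 (from -1.83 to -0.90), and in the deposited ratio by a median of -1.68. The span between the highest and the lowest spike-in was 4.58 at 24 hpf and 4.65 at 12 hpf. The amounts added are not given in the sources used here, and a part of this shift in the gene ratios was not tested.

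Few genes lower in both ratios at 24 hpf were higher in both at 12 hpf, 4 in all, of which 2 have a gene name; these were chosen after their values were seen. The collagen prolyl hydroxylase gene p4ha1b had 1640 units in cortisol-treated embryos and 2540 in vehicle-treated embryos, with a log2 ratio of -0.61 at 24 hpf, against 0.65 at 12 hpf. The gene si:ch73-52f24.4 had 3540 units in cortisol-treated embryos and 8125 in vehicle-treated embryos, with -1.13 at 24 hpf, against 0.92 at 12 hpf. Each had the same sign in its 2 probes at 24 hpf. The difference between stages was not tested.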

How the results depend on the processing

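No paired analysis was possible because each stage has 1 array. Counts of genes past a fold moved widely with the processing. At least 2-fold, 104 genes were higher and 81 lower with offset 10, 556 and 751 with plain background subtraction, 448 and 320 in the deposited ratio, and 1520 and 1052 with median centring, which moved the median of all genes to -1.22, the counts being relative to it. Without the correction for spot order, an alternative chosen after seeing the data, 97 were lower. With no filter 24 were higher and with the brightest probe 78. At least 1.5-fold in both ratios, 351 were higher and 353 lower with offset 10, 726 and 642 with plain subtraction and 842 and 223 with median centring, and 187 were higher with the brightest probe. The tailbud median was -0.62 with plain subtraction and below 0 under the other alternatives. The muscle median was -0.43 with median centring and above 0 under the others. The gap between genes that had gone up and down in vehicle by 4-fold was -0.90 with median centring. Among single genes, median centring gave values below 0 for atp2a1 (-0.50), cbfa2t2 (-0.016), exorh (-0.18), fancm (-0.28), fbxl3b (-0.30), h3c13a (-0.080), ino80db (-0.066), mybpc2b (-0.14), myhc4 (-0.12), myhz1.1 (-0.31), mylpfa (-0.47), pawr (-0.25) and smyhc2 (-0.37), and without the correction for spot order atp2a1 was at -0.20. Red signals near the limit, among them those of some lower genes, limit how far such ratios can be sized. Apart from the reversals named, the cause of these shifts was not tested.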
